A study of Mus musculus with 4 samples.

Results

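The AP-1 and Egr immediate early factors are 10 genes, Fos, Fosb, Fosl1, Fosl2, Jun, Junb, Egr1, Egr2, Egr3 and Atf3, out of 18193 named genes on the arrays. They are a list of names chosen on earlier results from these same arrays, namely the signals in the 4 groups, so their signals and the counts of factors called higher or lower are descriptions and carry no test. The 10 genes are read by 15 of 45037 probe sets, and 9 genes had at least 1 array on which they were called Present, the software's call that a transcript was detected. RNA came from the parietal peritoneum of C57BL/6J mice, which lines the wall of the abdomen. The group CG_Tg held mice with a transgene for brain natriuretic peptide (BNP) driven by the serum amyloid P promoter (SAP-BNP-Tg), which received chlorhexidine gluconate (CG), an antiseptic that irritates the peritoneum. The group PBS_Tg held mice with the same transgene injected with ethanol/PBS, the vehicle. The groups CG_WT and PBS_WT were wild-type mice given chlorhexidine gluconate and ethanol/PBS. Chlorhexidine was a 0.1% solution in 15% ethanol and 85% PBS, injected into the peritoneal cavity at 0.01 mL per gram of body weight 3 times per week over 21 days. The labels give no ethanol share or schedule for the vehicle injections, no age, and no number of mice behind an array.

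Immediate early genes are transcribed within minutes of a stimulus without new protein synthesis, and their mRNAs are short-lived. Fos and Jun proteins join through leucine zippers into the dimer AP-1, which binds DNA at genes of proliferation, inflammation and matrix breakdown, while Egr proteins bind GC-rich sites through zinc fingers. In wounds and injured serosal tissue these factors are known as early responders to growth factors, mechanical strain and cytokines, and they also respond to how a tissue is dissected. BNP acts through a receptor that makes cyclic GMP.

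With 1 array per group, no difference below has a replicate check. Signals were scaled to 1 trimmed mean, and calls of higher or lower required a difference of at least 2-fold, detection on the brighter array and a signal there at or above the 25th percentile of Present probe sets. Arrays called 50.5% to 55.1% of probe sets Present. The PBS_WT array stood apart in its controls, with a mean 18S rRNA signal of 1052 against 81.5 to 108 on the other arrays, and a beta-actin ratio of the 3-prime to the middle probe set of 5.81 against 2.23 to 2.84. The ratio of 3-prime to 5-prime beta-actin signal was closer, at 1.22 against 1.07 to 1.15. Nppb, the gene for BNP, was Absent on all 4 arrays, so it does not check the transgenic label. Markers of the mesothelium were Present on at least 1 array for 12 of 12 genes with a summed signal of 618 to 1663, beside 96109 to 120253 for 13 skeletal muscle markers, so the samples held underlying muscle. In such mixed tissue, fewer cells of a type and less RNA per cell cannot be told apart.

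The stretches upstream of 4 factors that were called in opposite directions in the genotypes (below) are shown here, since the comparison of the genotypes turns on these genes. Each is the 250 bases before the annotated start, 5′ to 3′ on the gene's strand, from RefSeq (GRCm38.p6), which matched 7 of the 10 genes (not Fosl1, Egr1 and Egr3). For Egr2, which has 5 annotated starts, the middle one was taken. Capitals mark matches on either strand to TGACG, the core of the cyclic AMP response element, to its extension TGACGT, to GCGNGGGCG, an Egr site, and to the CArG box bound by serum response factor.
Fos, chr12:85473640-85473889, plus strand: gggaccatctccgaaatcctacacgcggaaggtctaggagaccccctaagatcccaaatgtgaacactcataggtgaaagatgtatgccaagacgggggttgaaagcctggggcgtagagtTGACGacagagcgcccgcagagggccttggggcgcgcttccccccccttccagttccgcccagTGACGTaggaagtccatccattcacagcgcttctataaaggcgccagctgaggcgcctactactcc
Fosb, chr7:19310046-19310295, minus strand: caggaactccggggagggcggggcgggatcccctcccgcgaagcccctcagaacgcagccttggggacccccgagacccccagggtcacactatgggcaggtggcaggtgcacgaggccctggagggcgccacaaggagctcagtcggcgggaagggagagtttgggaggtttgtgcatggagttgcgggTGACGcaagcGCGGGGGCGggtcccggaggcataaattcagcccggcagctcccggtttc
Egr2, chr10:67537619-67537868, plus strand: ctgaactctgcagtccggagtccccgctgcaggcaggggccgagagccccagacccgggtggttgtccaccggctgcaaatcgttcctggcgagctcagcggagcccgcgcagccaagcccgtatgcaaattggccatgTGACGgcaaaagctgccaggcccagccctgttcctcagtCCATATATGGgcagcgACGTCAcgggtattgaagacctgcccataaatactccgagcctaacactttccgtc
Atf3, chr1:191183334-191183583, minus strand: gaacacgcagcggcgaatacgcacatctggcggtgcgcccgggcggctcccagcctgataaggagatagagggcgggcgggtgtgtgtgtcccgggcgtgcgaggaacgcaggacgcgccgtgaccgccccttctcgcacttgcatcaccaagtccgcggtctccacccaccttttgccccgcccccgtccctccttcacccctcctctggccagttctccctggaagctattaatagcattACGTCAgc

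The letters TGACG occurred in 5 of the 7 upstream stretches, those of Fos, Fosb, Junb, Egr2 and Atf3, and in 17.8% of 32851 RefSeq windows of the same length. The longer TGACGT, which contains TGACG, occurred in Fos, Egr2 and Atf3 and in 6.47% of windows. The Fos match lay 66 to 61 bases before the start, the Egr2 match 56 to 51 bases before it and the Atf3 match 8 to 3 bases before it. A CArG box occurred in Egr2, 72 to 63 bases before the start, and in 1.47% of windows. The Egr site occurred in Fosb and Fosl2 and in 4.7% of windows. The AP-1 site TGANTCA, searched in the same way, was in none of the 7 and in 6.75% of windows. Jun held none of these letters in this window. Such matches are a description and not evidence of binding. Bases further upstream were not searched, so a gene without a match in its window may have one beyond it.

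**Figure D1:**
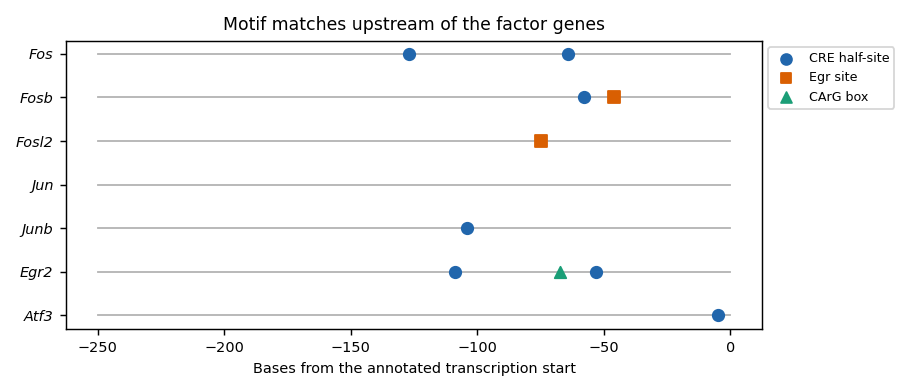
Positions of motif matches (points) in the 250 bases before the annotated start of the 7 factor genes with a RefSeq window, with the start at 0 on the x axis in bases and 1 row per gene. CRE half-site is TGACG, Egr site is GCGNGGGCG, and the CArG box is found in the Egr2 row, 72 to 63 bases before the start.

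On the wild-type arrays, the factors were higher with chlorhexidine, and on the transgenic arrays most of them were lower. Of the 10 factors, 0 were called higher and 5 lower in CG_Tg over PBS_Tg, where 3.81% and 1.4% of 12754 genes Present on at least 1 array were called so, 5.21% in either direction. In CG_WT over PBS_WT, 8 were called higher and 0 lower, where 8.22% and 4.93% of all genes were, 13.2% in either direction. The median log2 difference over the 9 detected factors was -1.01 in transgenic mice and 2.03 in wild type, beside 0.00 for all genes in either comparison (quoted to 2 decimals). Since the factors were chosen with these values known, nothing is read from the counts.

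**Figure D2:**
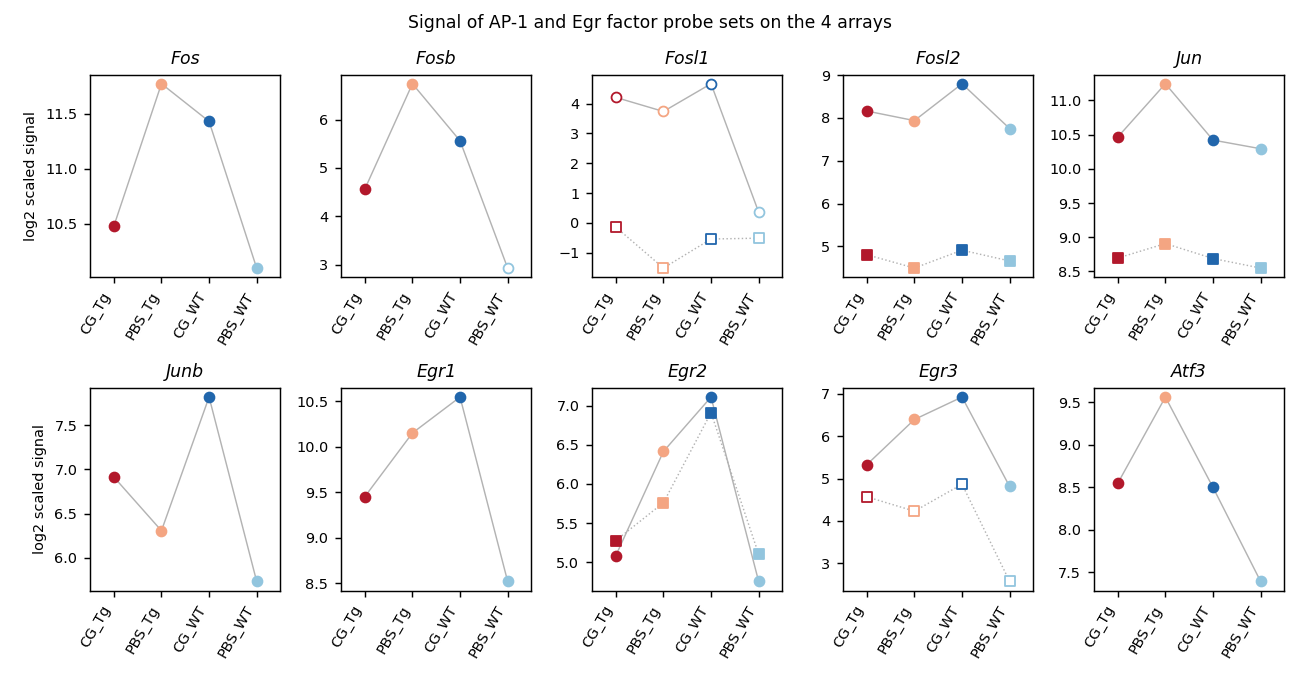
The log2 scaled signal (y axis) of the 15 probe sets of the 10 factors on the 4 arrays (x axis, 1 array per group), with circles for the probe set used for the gene and squares for a second one. Filled points are Present and open points are not. The used probe set was lowest on PBS_WT for all 10 genes, at 1094 for Fos against 1426, 3499 and 2759 in CG_Tg, PBS_Tg and CG_WT.

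The Fos family supplies the partner of Jun in AP-1. Fos (probe set 1423100_at), the founding member and a classic marker of recent stimulation, had a scaled signal of 1426 in CG_Tg and 3499 in PBS_Tg, and of 2759 in CG_WT and 1094 in PBS_WT. Its highest array was thus the transgenic vehicle one and its lowest the wild-type vehicle one, with both chlorhexidine arrays between them. Fos was 2.45-fold lower with chlorhexidine in transgenic mice, whereas in wild-type mice it was 2.52-fold higher. The step between its 2 highest arrays, 0.34 on the log2 scale, was under the SD of 0.51 between probe sets of the same gene for that pair of arrays.

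Fosb (1422134_at), which also makes the long-lived variant ΔFosB in the brain, had a signal of 23.6 in CG_Tg and 107 in PBS_Tg, and of 47.2 in CG_WT and 7.61 in PBS_WT. It was called Absent on PBS_WT, so folds against that array are lower bounds. Fosb was 4.53-fold lower with chlorhexidine in transgenic mice, the largest difference of any factor there, and at least 6.21-fold higher in wild type. Between the vehicle arrays it was at least 14.1-fold higher in PBS_Tg than in PBS_WT.

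Fosl2 and Fosl1 encode Fra-2 and Fra-1, the Fos-related proteins that lack the strong activation domain of Fos. Fosl2 (1437247_at) had a signal of 286 in CG_Tg and 245 in PBS_Tg, and of 445 in CG_WT and 216 in PBS_WT. The difference with chlorhexidine was 1.17-fold in transgenic mice and 2.07-fold in wild type, both upward, and only the second was called. Its second, dimmer probe set differed by 0.31 and 0.25 on the log2 scale in the same comparisons. Fosl1 was Absent on all 4 arrays with both probe sets, at 18.5 in CG_Tg and 13.3 in PBS_Tg, and at 25.4 in CG_WT and 1.29 in PBS_WT with the brighter one, so no fold is given for it.

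The Jun proteins can pair with each other as well as with Fos. Jun (1417409_at) had a signal of 1413 in CG_Tg and 2423 in PBS_Tg, and of 1369.7 in CG_WT and 1255 in PBS_WT. One array, PBS_Tg, was above 3 that lay close together, and Jun was not called in either chlorhexidine comparison (1.71-fold lower in transgenic mice, 1.09-fold higher in wild type). The second Jun probe set had the same order of the vehicle arrays at 480.2 in PBS_Tg and 375 in PBS_WT.

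Junb (1415899_at), a Jun protein that often opposes Jun in growth control, had a signal of 121 in CG_Tg and 79.2 in PBS_Tg, and of 226 in CG_WT and 53.3 in PBS_WT. Unlike Fos, Junb had both chlorhexidine arrays above both vehicle arrays. It was 1.52-fold higher with chlorhexidine in transgenic mice, under the 2-fold rule, and 4.24-fold higher in wild type.

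The Egr genes encode zinc-finger factors that induce growth factor and matrix genes. Egr1 (1417065_at) had a signal of 700.4 in CG_Tg and 1138 in PBS_Tg, and of 1496 in CG_WT and 367 in PBS_WT. It was 1.62-fold lower with chlorhexidine in transgenic mice, which was not called, and 4.07-fold higher in wild type. Egr1 thus had CG_WT as its highest array, where Fos had PBS_Tg. The step between these 2 arrays was 0.395 for Egr1 on the log2 scale. As for Fos, that was under the SD of 0.51 between probe sets of the same gene.

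Egr2 (1427682_a_at), a factor of macrophages, T cells and Schwann cells, had a signal of 33.9 in CG_Tg and 85.3 in PBS_Tg, and of 138 in CG_WT and 27.0 in PBS_WT. It was 2.51-fold lower with chlorhexidine in transgenic mice and 5.10-fold higher in wild type. Its second probe set, 1427683_at, gave 38.8 in CG_Tg and 54.2 in PBS_Tg, and 120.2 in CG_WT and 34.4 in PBS_WT, so the transgenic difference was -0.48 on the log2 scale there and under the 2-fold rule, while the wild-type one was 1.80. The Egr2 values in transgenic mice therefore depend on the probe set.

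Egr3 (1436329_at), a close relative known for roles in T cells and muscle spindles, had a signal of 40.1 in CG_Tg and 83.9 in PBS_Tg, and of 121 in CG_WT and 28.1 in PBS_WT. It was 2.09-fold lower with chlorhexidine in transgenic mice and 4.30-fold higher in wild type. A second Egr3 probe set was Absent on all 4 arrays. All 3 Egr genes had the same order of arrays, with CG_WT highest, then PBS_Tg, then CG_Tg, and PBS_WT lowest, an order that 3.21% of all genes had. The step from CG_WT to PBS_Tg was 0.53 for Egr3, near the SD of 0.51 between probe sets, and 0.69 for Egr2. Of 8 endothelial markers, 3 had it too. Kdr, the VEGF receptor, had a signal of 66.7 in CG_Tg and 83.3 in PBS_Tg, and of 176 in CG_WT and 65.9 in PBS_WT, and was called lower in CG_Tg over CG_WT, as the Egr genes were. The junction protein Pecam1 and the secreted factor Egfl7 were the others, at 1.14-fold and 1.37-fold lower in CG_Tg over CG_WT. The part of endothelial RNA in the Egr signals was not tested.

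Atf3 (1449363_at), a stress-induced member of the ATF/CREB family that pairs with Jun proteins, had a signal of 375 in CG_Tg and 756 in PBS_Tg, and of 362 in CG_WT and 168 in PBS_WT. The chlorhexidine arrays were close to each other, and the vehicle arrays lay on either side of them. Atf3 was 2.02-fold lower with chlorhexidine in transgenic mice and 2.15-fold higher in wild type. Its differences of -1.01 and 1.10 are near the threshold of 1 on the log2 scale.

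A group of 5 factors had opposite calls in the genotypes. Fos, Fosb, Egr2, Egr3 and Atf3 were lower in CG_Tg over PBS_Tg and higher in CG_WT over PBS_WT, a pair of calls that 8 of 12754 genes had, 0.063%. The other 3 genes were Btg2, an antiproliferative immediate early gene, Neto2, a subunit that accompanies kainate receptors in neurons, and G530011O06Rik. These 3 were named after their values were seen, and Btg2 was also named as the gene closest to Fos (below). The difference between the genotypes' chlorhexidine differences, transgenic minus wild type, was below 0 for 9 of 9 detected factors, with a median of -2.63 (0.02 for all genes). It was above 0 for 6528 of 12754 genes. Because the factors were chosen with these signals known, their count is a description. No test of it can be made, since a fit with that term has 0 residual degrees of freedom.

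**Figure D3:**
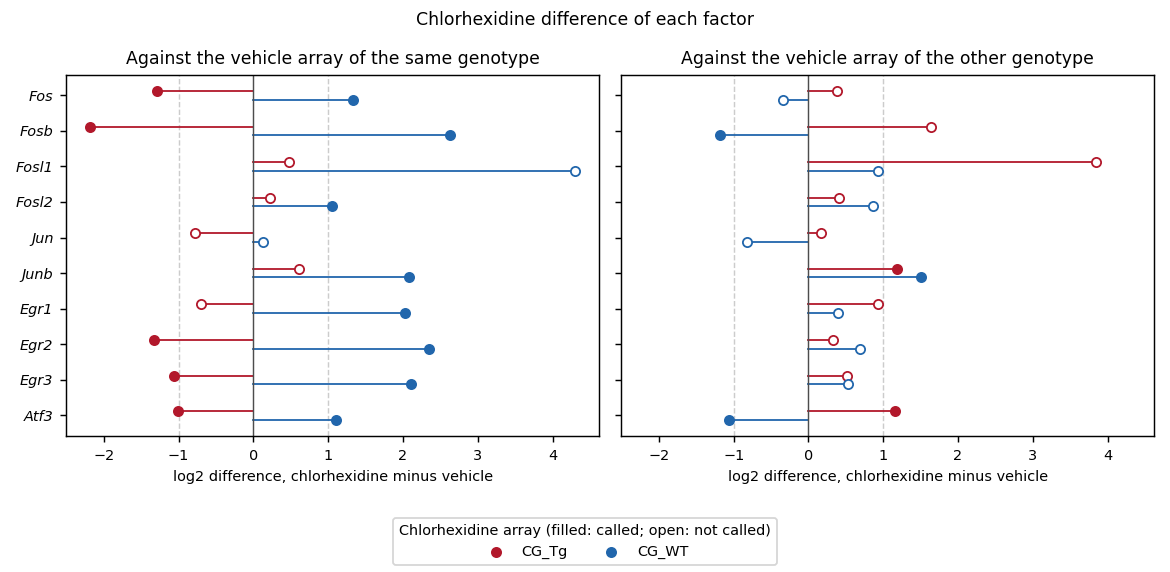
The log2 difference of each factor (rows) between a chlorhexidine array and a vehicle array, for CG_Tg (upper point in a row) and CG_WT (lower point), with the vehicle array of the same genotype on the left and of the other genotype on the right. Filled points were called by the 2-fold rule and dashed lines mark differences of 1 and -1. Fos lies at -1.29 and 1.33 on the left, and at 0.38 and -0.34 on the right, and Fosl1 was Absent on all 4 arrays.

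The vehicle arrays also differed from each other in these factors. In PBS_Tg over PBS_WT, 6 factors were called higher and 0 lower (Fos, Fosb, Egr1, Egr2, Egr3 and Atf3), where 0.957% and 0.502% of all genes were (1.46% in either direction), and the median of the 9 detected factors was 1.63. Atf3 was 4.49-fold higher there, Fos 3.20-fold, Egr2 3.15-fold, Egr1 3.10-fold and Egr3 2.99-fold. PBS_WT was the lowest array for 9 of 9 detected factors, as it was for 26.4% of all genes. Markers of other cells also differed on that array. All 13 skeletal muscle markers were highest there, as were 32.6% of all genes, and 9 of 12 detected macrophage markers were lowest there, as were 12 of 16 detected targets of AP-1 and Egr1. The muscle differences were small, with a median of -0.285 on the log2 scale in PBS_Tg over PBS_WT and 0 called. Their part in the factors' values was not tested. It is also the array that stood apart in 18S rRNA signal and actin ratio, and whether that went into the factors' signals was not tested.

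Between the chlorhexidine arrays the Egr genes stood apart from Jun and Atf3 in size of difference. In CG_Tg over CG_WT, 3 factors were called lower and 0 higher, where 0.964% and 0.784% of all genes were, 1.75% in either direction. They were the Egr genes, with Egr2 4.07-fold, Egr3 3.02-fold and Egr1 2.14-fold lower. Fos was 1.93-fold lower and Fosb 1.998-fold lower, just short of the 2-fold threshold, and Junb was 1.87-fold lower. Jun and Atf3 were 1.03-fold and 1.04-fold higher. The Egr genes were therefore lower on the transgenic chlorhexidine array in a comparison that leaves out both vehicle arrays. With the mean of all probe sets of a gene, 2 factors were called (2.05% of all genes) and Egr3 was at -0.94. The Egr genes were not alone, since 6 of 42 other detected immediate early genes were called lower there and 0 higher. Those 6 were Ptgs2, Il6, Nr4a2, Ier2, Ier3 and Ccn1, from 4.43-fold lower for Ptgs2 to 2.25-fold for Ccn1.

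Exchanging the vehicle arrays left 0 factors with the pair of calls lower in transgenic mice and higher in wild type. PBS_WT was the lowest array for 9 of 9 detected factors, so none could be lower in CG_Tg over PBS_WT. That count of 0 and the positive sign of the median in CG_Tg over PBS_WT were thus fixed beforehand. In CG_Tg over PBS_WT, 2 factors were called higher (Junb, 2.26-fold, and Atf3, 2.22-fold) and 0 lower, where 5.17% and 2.45% of all genes were (7.62% in either direction), and the median was 0.51. In CG_WT over PBS_Tg, 1 factor was called higher (Junb, 2.85-fold) and 2 lower (Fosb, 2.27-fold, and Atf3, 2.09-fold), where 7.23% and 3.57% of all genes were (10.8% in either direction), and the median was 0.40. Against either vehicle array, Junb had a positive chlorhexidine difference in either genotype, and so had Fosl2. Fos, Fosb, Jun and Atf3 changed sign with the vehicle array in either genotype. Egr1, Egr2 and Egr3 had positive differences in CG_WT against either vehicle array, and in CG_Tg their sign changed with it.

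Related genes were called at shares that can be set beside those of all genes. Of 25 other genes of the AP-1, Maf and ATF/CREB families, 22 had a probe set with 1 symbol and were Present on at least 1 array, and 0 were called in transgenic mice and 3 higher and 0 lower in wild type, where 8.22% of all genes were higher. The medians were 0.09 and 0.17. Those 3 were Batf2, an interferon-induced partner of Jun proteins, at least 3.96-fold higher in wild type and Absent on both transgenic arrays, Creb5, at a log2 difference of 0.83 in transgenic mice and 1.32 in wild type, and the stress factor Ddit3 at 0.25 and 1.03. Nab1 and Nab2, corepressors that Egr proteins recruit and induce, had no call, at 0.58 and 0.94 for Nab1 and 0.26 and 0.52 for Nab2. Wt1, a mesothelial zinc-finger factor whose sites overlap those of Egr1, was 2.40-fold higher in transgenic mice and 1.93-fold higher in wild type. It had the highest mean chlorhexidine difference of the 12 mesothelial markers, whose medians were -0.09 in transgenic mice and -0.82 in wild type. In wild type 5 of the 12 were called lower and 0 higher, where 4.93% and 8.22% of all genes were. In transgenic mice Wt1 was the only one called, where 5.21% of all genes were. Srf, which drives Fos and Egr1 through the CArG box, was 1.37-fold and 1.74-fold lower.

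Of 46 other immediate early genes, 42 were Present on at least 1 array, and 6 were called higher and 4 lower in transgenic mice against 14 higher and 0 lower in wild type. All genes were called higher and lower at 3.81% and 1.4% in transgenic mice, and at 8.22% and 4.93% in wild type. Their medians were -0.01 and 0.56. Genes that followed the Fos pattern and genes that did not stood side by side in this list. Btg2 had a signal of 372 in CG_Tg and 776 in PBS_Tg, and of 739 in CG_WT and 255 in PBS_WT, high and low on the same arrays as Fos. Nr4a1, an orphan nuclear receptor induced with Fos, was 2.12-fold lower with chlorhexidine in transgenic mice and 1.20-fold lower in wild type. The phosphatase Dusp1, which switches off the kinases upstream of AP-1, was 1.92-fold and 1.02-fold lower.

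A further set was higher with chlorhexidine in both genotypes. The growth arrest gene Gadd45a had a signal of 457 in CG_Tg and 184 in PBS_Tg, and of 849 in CG_WT and 261 in PBS_WT. The polo-like kinase Plk2 was 2.15-fold higher in transgenic mice and at least 6.03-fold higher in wild type, where it was Absent on PBS_WT. Both genes had higher signals on the chlorhexidine array of either genotype. Of 16 detected textbook targets of AP-1 and Egr1, 5 were called higher in transgenic mice, where 3.81% of all genes were, and 10 in wild type, where 8.22% were, and 0 were called lower in either. The angiogenic factor Vegfa was not called, at log2 differences of -0.83 in transgenic mice and 0.11 in wild type, nor was the gelatinase Mmp9, at 0.25 and -0.49. The stromelysin Mmp3, a classic AP-1 target, had a signal of 583 in CG_Tg and 138 in PBS_Tg, and of 622 in CG_WT and 106 in PBS_WT, so that its chlorhexidine arrays were close and its vehicle arrays were close. Not all targets were like Mmp3. In PBS_Tg over PBS_WT 3 of the 16 were called higher and 0 lower, where 0.957% and 0.502% of all genes were. Thbs1 was 1 of them, at 287 in PBS_Tg and 91.1 in PBS_WT. The transgenic minus wild-type chlorhexidine difference was above 0 for 3 of 16 targets, with a median of -0.84, beside 0.02 for all genes.

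**Figure D4:**
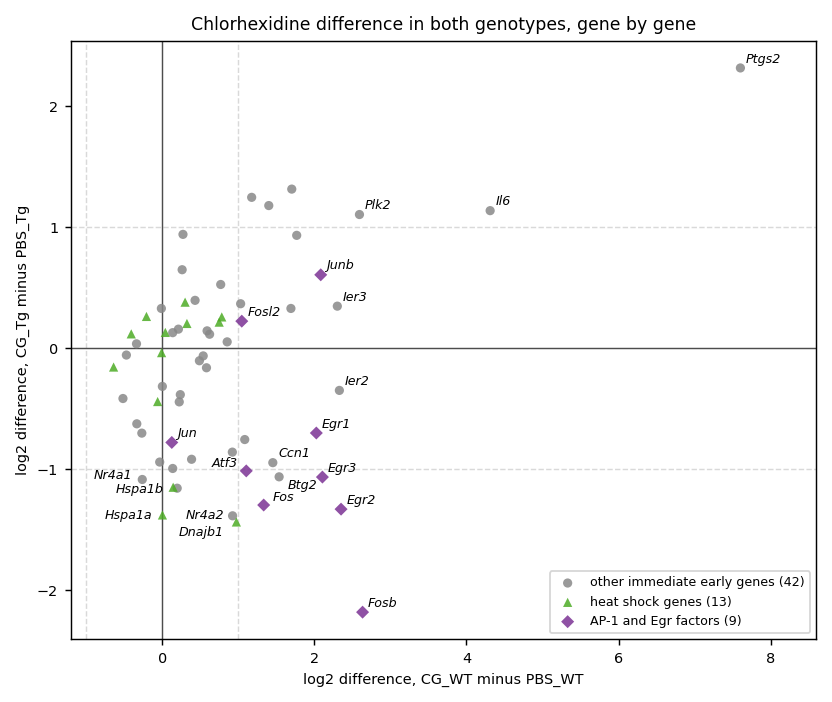
Each point is a gene Present on at least 1 array, with its log2 difference in CG_Tg minus PBS_Tg on the y axis and in CG_WT minus PBS_WT on the x axis, for 9 AP-1 and Egr factors, 42 other immediate early genes and 13 heat shock genes. Dashed lines mark 1 and -1. Fos, Fosb, Egr2, Egr3, Atf3 and Btg2 lie in the lower right, past both lines, while Ptgs2, Il6 and Plk2 lie in the upper right.

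Of 19 detected upstream kinases and serum response factors, 0 were called in transgenic mice, where 5.21% of all genes were. In wild type 2 were called higher and 1 lower, a share near the 13.2% of all genes called there. The kinase Map3k8 was 1.93-fold and 2.04-fold higher, the ternary complex factor Elk3 1.49-fold and 2.25-fold higher, and the p38-activating kinase Map2k3 1.56-fold and 2.59-fold lower. Transcript levels of these kinases do not measure their activity.

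Heat shock genes respond to protein damage and other stress. Of 13 detected genes, 3 were called lower with chlorhexidine in transgenic mice and 0 in wild type, where 1.4% and 4.93% of all genes were. The same 3 genes were called higher in PBS_Tg over PBS_WT, where 0.957% of all genes were, and the summed signal of the list was 22869 in CG_Tg and 24484 in PBS_Tg, and 23270.3 in CG_WT and 22132 in PBS_WT. Dnajb1, a co-chaperone, had 321 in CG_Tg and 869 in PBS_Tg, and 678 in CG_WT and 345 in PBS_WT. Hspa1a had 529 in CG_Tg and 1374 in PBS_Tg, and 571 in CG_WT and 570.2 in PBS_WT. Hspa1b, a near-identical copy whose transcripts its probes cannot safely separate, had 1643 in CG_Tg and 3642 in PBS_Tg, and 1774 in CG_WT and 1606 in PBS_WT. Both were highest on PBS_Tg, like Fos, Fosb, Jun and Atf3. In the list, 4 of 13 genes were highest on PBS_Tg, as were 18.6% of all genes. The list medians were 0.12 in transgenic mice, 0.04 in wild type and 0.06 in PBS_Tg over PBS_WT. Other members went the other way in transgenic mice. Dnaja1 was at 0.26 in transgenic mice and 0.78 in wild type, and Hsp90aa1 at 0.22 and 0.75, with no call. The labels give no time from death to lysis for any mouse, and tissue handling was not tested as a source of these values.

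Over the 4 arrays, the genes whose centred log2 signals lay closest to Fos among 12745 genes outside the list were Btg2 at a Euclidean distance of 0.23, the neuronal filament gene Ina at 0.32, Dnajb1 at 0.36, Pdzd4 at 0.38 and the G protein subunit Gng3 at 0.38. Ina, Pdzd4 and Gng3 were dim and Present on at most 2 arrays. Closest to Egr1 were Cdk20 (0.36), 5730403I07Rik (0.37), Rnf207 (0.38), Ier2 (0.39) and Lancl3 (0.39). Of these, Ier2, an immediate early gene, was Present on all 4 arrays and the others on 1. Among the factors, Egr3 lay at 0.38 from Egr1, Egr2 at 0.67 and Fos at 0.65. Distances over so few arrays are a description.

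**Figure D5:**
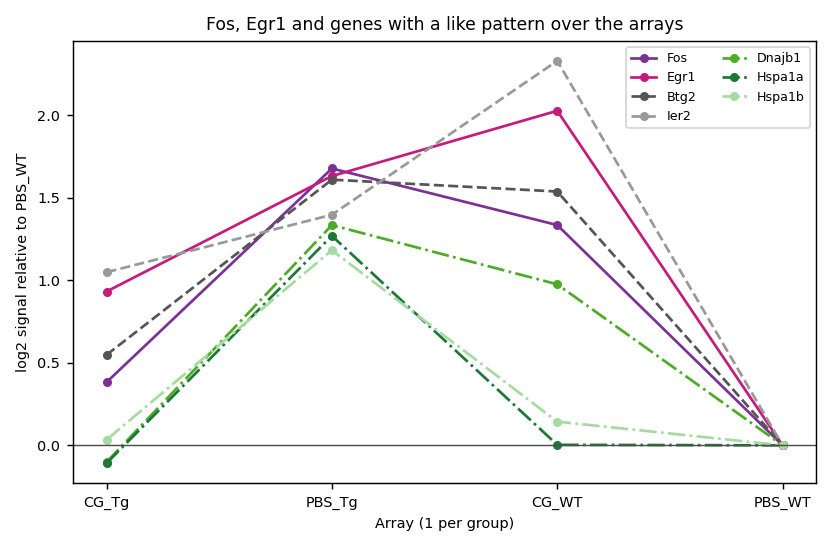
The log2 signal relative to PBS_WT (y axis) on the 4 arrays (x axis, 1 per group) for Fos, Egr1, their closest detected immediate early genes Btg2 and Ier2, and the heat shock genes Dnajb1, Hspa1a and Hspa1b. Fos peaks at 1.68 in PBS_Tg and Egr1 at 2.03 in CG_WT, while Hspa1a is near 0 in CG_Tg and CG_WT.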

How the data were processed

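Total RNA of the parietal peritoneum was labelled with biotin and hybridised to 4 Affymetrix arrays, 1 per group, per the labels' protocols. The authors deposited a signal for every probe set, which is a linear intensity, per the file headers. Beside it stand the authors' detection p-value and detection call (Present, Marginal or Absent), per the file headers. How signals were computed and scaled is not given in the sources used here. Raw scanner files were not used. The deposited series table held the same intensity values, with 0 differing.

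Groups were taken from the labels. Each array was multiplied to a common 2% trimmed mean (factors 1.01 in CG_Tg, 0.877 in PBS_Tg, 0.984 in CG_WT and 1.17 in PBS_WT), with a floor of 0.1 before the log2 transform. The 45101 probe sets included 64 controls, which were removed. The remaining 45037 had 1 symbol (34945), several (932) or none (9160) in the platform annotation. Symbols were updated by Entrez identifier through a RefSeq table of GRCm38.p6 for 34741 probe sets. The probe set of highest average log2 signal stood for the gene. A call needed a log2 difference of at least 1, detection (Present) where the gene was brighter and a signal there at or above the 25th percentile of its Present probe sets. Folds of genes undetected on the dimmer array were computed against the higher of that array's lowest Present signal and the gene's own signal, as a lower bound. No p-value was computed, and the number of arrays limits the precision.

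The members and the gene lists were chosen with earlier results of these data known. Named genes were all members, up to 4 genes at either end of each list by mean chlorhexidine difference, and the 5 genes closest to Fos and to Egr1. Neto2, G530011O06Rik, Nr4a2, Ier3 and Ccn1 fall outside that rule and were named after their values were seen. Alternatives were the deposited scaling, median centring, quantile normalization, cyclic loess (limma 3.58.1 in R 4.3.3), a pseudocount of 32, other probe set rules, filters, thresholds and vehicle arrays. The calling step was run on simulated data with planted changes larger than the threshold and noise smaller than the SD between probe sets. That run checks the working of the rule and not the calls made here.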

Additional observations from a re-analysis of the deposited data

Results flagged for a closer look

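A set of 5 factors was called lower with chlorhexidine in transgenic mice and higher in wild type. Subtracting the wild-type log2 difference from the transgenic one gave -2.63 for Fos, -4.81 for Fosb, -3.68 for Egr2, -3.17 for Egr3 and -2.12 for Atf3. They are listed because the only array pair of one genotype moved one way and that of the other moved the opposite way. This difference was not tested, since each group has 1 array. Fosb was Absent on PBS_WT, so its value depends on undetected signal.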

How the results depend on the processing

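The chlorhexidine values of most factors changed sign, in 1 genotype or both, with the vehicle array used. Junb and Fosl2 kept positive differences against either vehicle array, as did the Egr genes in CG_WT. Each exchange also changed the genotype of the vehicle mice, so array and genotype cannot be told apart. With the vehicle array of the other genotype, the median of the factors was 0.51 in transgenic mice and 0.40 in wild type, and 2 factors were called in transgenic mice (2 higher, 0 lower) and 3 in wild type (1 higher, 2 lower). In CG_Tg the log2 differences then turned to 0.38 for Fos, 1.64 for Fosb, 0.33 for Egr2, 0.51 for Egr3 and 1.15 for Atf3, and in CG_WT to -0.34 for Fos, -1.18 for Fosb and -1.06 for Atf3. PBS_WT was the lowest array for every detected factor. The positive values in CG_Tg over PBS_WT, their median and the lack of opposite calls after the exchange were thus fixed beforehand. With a pseudocount of 32 the medians were 1.31 for chlorhexidine in wild type and 0.99 for PBS_Tg over PBS_WT, and 2 factors were called for chlorhexidine in transgenic mice (2.62% of all genes). The mean of all probe sets of a gene left 3 factors called there (4.79%), a 1.5-fold threshold gave 8 (1 higher, 7 lower, 15.1%) and a 3-fold threshold 1 (1.59%). In wild type a 3-fold threshold left 5 (4.48%), and between the chlorhexidine arrays a 1.5-fold threshold gave 7 (7.76%). The cause of these changes was not tested, beyond the thresholds and the probe sets themselves. Of the summary values under all alternatives, 71 kept their direction and moved less than the SD between probe sets or by at most 1.5 times. A further 9 moved by more than that, and 3 reversed, all with the vehicle array of the other genotype. The factors with opposite calls in the genotypes were Fos and Fosb with a pseudocount of 32, Fosb alone at 3-fold, 0 factors with the vehicle arrays exchanged, and 3 to 6 factors under the other settings. Among all genes, 8 had that pair of calls as reported, 4 with the pseudocount, 2 at 3-fold and 3 with the vehicle arrays exchanged. It was found in 17 genes with the deposited scaling, 25 at 1.5-fold and 6 to 12 under the rest. With no filter on low values, 318 genes had it, undetected genes included. The scaling moved the median of all genes in CG_WT over PBS_WT to 0.25 as deposited, -0.23 after median centring and -0.11 after quantile normalization. Of all genes, 329 were higher and 320 lower in transgenic mice and 1586 and 318 in wild type with the deposited scaling, against 486 and 178, and 1049 and 629 as reported. With median centring, 723 genes were higher and 1225 lower in wild type. No paired analysis was possible because each group has 1 array and the labels give no replicate numbers. Signal over background limits Fosb, Absent on PBS_WT, and Fosl1, Absent on all 4 arrays.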

Other observations

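No marker of the 8 cell type lists had the order of arrays seen for Fos, which 1.98% of all genes had, while 3 endothelial markers had the order of the Egr genes. The summed signal of 9 neutrophil markers, undetected ones included, was 2565 in CG_Tg and 304 in PBS_Tg, and 581.8 in CG_WT and 137 in PBS_WT. Of the detected markers, 6 of 6 were highest on CG_Tg, as were 13.9% of all genes. The summed signal of 13 macrophage markers was 13008 in CG_Tg and 8625 in PBS_Tg, and 13363 in CG_WT and 7535 in PBS_WT, so both chlorhexidine arrays were above both vehicle arrays. The 8 endothelial markers summed to 1084 in CG_Tg and 1045 in PBS_Tg, and to 1332 in CG_WT and 907 in PBS_WT. The endothelial receptor Kdr was 1.25-fold lower with chlorhexidine in transgenic mice and 2.67-fold higher in wild type.

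The 8 fibroblast markers summed to 25203 in CG_Tg and 15840.5 in PBS_Tg, and to 29802 in CG_WT and 15396 in PBS_WT. The adipocyte markers, 9 of them measured, summed to 14230.0 in CG_Tg and 20128 in PBS_Tg, and to 10884 in CG_WT and 21089 in PBS_WT. Alas2, an enzyme of haem synthesis in red cell precursors, had 1178 in CG_Tg and 150.0 in PBS_Tg, and 212 in CG_WT and 193 in PBS_WT. It was 1 of 2 detected blood markers, and the other, Hba-a2, was not higher in CG_Tg than in CG_WT. The part of any of these cell types in the factors' signals was not tested.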
